A study of Homo sapiens with 4 samples.

Results

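WNT signaling was examined through 33 genes that encode its ligands, receptors, intracellular transducers, nuclear factors and inhibitors, out of 17755 genes measured by RNA-Seq in SK-MEL-28 and A375 cells, which are established human melanoma cell lines. The genes were chosen by name from a list of 41 pathway members that was drawn up around canonical and WNT5A-type signaling and around the rise of WNT9A with siLINC00622. The response of WNT9A to the siRNA is therefore part of how the genes were selected, and the response of all of them is given below as a description with no test. The other 8 named genes, WNT5B, WNT7B, WNT10A, WNT11, ROR2, NKD1, NKD2 and RNF43, were not analysed here, and the lowest mean over the 4 libraries that any analysed gene reached was 0.25 FPKM (a level scaled for a length assigned to the gene and the depth of the library). Each line was transfected either with a control siRNA (siNC) or with an siRNA against the long noncoding RNA LINC00622 (siLINC00622), kept without serum for 6 h and then in medium with 10% serum for 24 h. There was 1 library per line and treatment, so 4 in all, and each line stands for itself only. The sample labels name melanoma tissue as the source while the same labels name the cell lines, and the libraries are described here by line.

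WNT ligands are lipid-modified secreted proteins that the O-acyltransferase PORCN acylates and the carrier WLS brings to the cell surface. In the canonical branch a ligand engages a Frizzled receptor and LRP5 or LRP6, Dishevelled proteins are recruited, the destruction complex of APC, Axin and GSK3 no longer marks beta-catenin for degradation, and beta-catenin enters the nucleus to act with TCF/LEF factors. WNT5A is the best known ligand of the beta-catenin-independent branch, which works through Frizzled, ROR and RYK receptors, and in melanoma it has long been discussed in connection with motility and with a less pigmented cell state, whereas beta-catenin and LEF1 are known to act with MITF, the master factor of the melanocyte lineage.

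The sequences below show what was introduced into the cells and the promoters of the ligand and the inhibitor that showed the largest differences with the siRNA among the members with over 50 counts in either library. The first pair are the sense strands of the designed siRNAs against LINC00622, with capitals on the bases that pair with positions 2 to 8 of the guide strand (the seed). The sources do not state which of them was used for sequencing.
siLINC00622_1: ccctaaagaaaGTGAGAAa
siLINC00622_2: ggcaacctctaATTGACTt

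The promoters are the 250 bases before the RefSeq start site in GRCh38.p14, on the gene's own strand, with capitals on any match to CTTTGAT or CTTTGAA, the core words that TCF/LEF factors are known to bind, searched on both strands. The WNT9A window lies on the minus strand at chr1:227947933-227948182 and the DKK1 window on the plus strand at chr10:52314031-52314280.
WNT9A: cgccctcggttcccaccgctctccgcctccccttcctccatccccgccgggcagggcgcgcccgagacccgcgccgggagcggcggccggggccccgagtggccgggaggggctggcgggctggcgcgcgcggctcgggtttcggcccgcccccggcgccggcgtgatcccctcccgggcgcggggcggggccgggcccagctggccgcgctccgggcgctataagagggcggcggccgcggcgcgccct
DKK1: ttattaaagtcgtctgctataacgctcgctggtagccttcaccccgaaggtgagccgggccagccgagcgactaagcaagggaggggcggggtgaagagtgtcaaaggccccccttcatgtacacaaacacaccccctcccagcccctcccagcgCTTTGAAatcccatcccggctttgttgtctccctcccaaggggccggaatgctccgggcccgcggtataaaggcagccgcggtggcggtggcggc

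The WNT9A window held 84.4% G and C with 44 CG dinucleotides and neither word, and the DKK1 window held 62.8% G and C with 18 CG dinucleotides and 1 word, CTTTGAA, starting 95 bases before the start site. Over windows of 300 bases (250 before to 50 after the start), DKK1 was the only member with either word among 25 members that had an entry, some of them with several windows (1 of 32 windows, 3.13%). Among the 15534 windows of the same length that belong to genes of the table, 4.42% held a word, 1.66% CTTTGAT and 2.81% CTTTGAA. Among all 35116 windows, 6.86% held a word, 2.62% CTTTGAT and 4.43% CTTTGAA. A match is a description of the letters and not a measured binding site.

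The libraries held 31269923 to 36384819 counts. LINC00622 had 309 counts with siNC and 135 after siLINC00622 in SK-MEL-28 (log2 ratio -1.21, 95% counting interval -1.53 to -0.93) and 135 and 86 times in A375 (-0.84, -1.27 to -0.46), so it was lower in both libraries that received the siRNA. Here and below, the log2 ratio of siLINC00622 over siNC was taken from counts scaled by TMM with a prior count of 2, and the exact Clopper-Pearson interval covers counting error only, not the spread between cultures, which was not measured. All 11 melanoma markers were listed, and their summed level was 2118 and 2252 FPKM in SK-MEL-28 against 207 and 249.9 FPKM in A375. SOX10 was at 118 FPKM or more in every library, while the pigment gene PMEL was at 940 and 1134 FPKM in SK-MEL-28 against 2.24 and 2.35 FPKM in A375. CSPG4 (55.0 and 41.2 FPKM against 72.0 and 82.3) and MIA (0.625 and 0.303 against 0.799 and 0.829) were higher in A375. All other melanoma markers were higher in SK-MEL-28 under each treatment, so the summed gap was not shared by every marker. Of the markers of other cell types, none of the 3 leukocyte and none of the 3 endothelial genes was among the analysed genes, and 3 of 4 epithelial genes summed to 1.55 to 7.99 FPKM.

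WNT9A, a ligand known from joint and skeletal development, was higher with siLINC00622 in both lines. In SK-MEL-28 it had 37 counts with siNC and 78 with siLINC00622 (0.28 and 0.57 FPKM), a log2 ratio of 1.01 with a counting interval of 0.46 to 1.65. In A375 it had 211 and 485 counts (1.69 and 3.33 FPKM), a log2 ratio of 0.98 with an interval of 0.76 to 1.23. Among members that passed the minimum of 10 counts in both lines, WNT9A was the only one more than 1.5-fold higher with the siRNA in both lines (FZD9, described below, had under 10 counts in SK-MEL-28). WNT9A was named for this rise, and the share of all genes higher in both lines is not given here. The count is therefore no result about the members. Its level with siNC in A375 was above its level with siLINC00622 in SK-MEL-28.

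WNT5A gave a different picture, with few counts in SK-MEL-28 and the highest level of the 3 ligands in A375. Its counts in SK-MEL-28 were 33 and 28 (0.139 and 0.115 FPKM), a log2 ratio of -0.25 with an interval of -1.05 to 0.50. In A375 it had 2807 and 4119 counts (12.5 and 15.8 FPKM), a ratio of 0.34 with an interval of 0.27 to 0.41, which did not pass 1.5-fold. WNT3, a canonical ligand, had 14 and 12 counts in SK-MEL-28 against 138 and 118 in A375, with log2 ratios of -0.22 and -0.43.

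By level per length, WNT9A made up 53.9% of the summed FPKM of these 3 ligands in the siNC library of SK-MEL-28 and 74.3% after siLINC00622. In A375 it was WNT5A that made up most of the sum, with 82.2% and 79.5%, while WNT9A made up 11.03% and 16.7%. The sum itself was 0.517 and 0.767 FPKM in SK-MEL-28 against 15.3 and 19.9 FPKM in A375. Another ligand outside the member list, WNT10B, was at 1.35 and 1.38 FPKM in SK-MEL-28 against 3.16 and 2.77 FPKM in A375, above the other 3 together in SK-MEL-28. With WNT10B counted in, the sum was 1.86 and 2.15 FPKM in SK-MEL-28 against 18.4 and 22.7 FPKM in A375, WNT9A made up 14.97% and 26.5% of it in SK-MEL-28 against 9.14% and 14.7% in A375, and WNT5A made up 68.1% and 69.8% in A375. In bulk RNA of this kind, fewer cells that express a gene and less RNA per cell cannot be told apart.

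**Figure D1:**
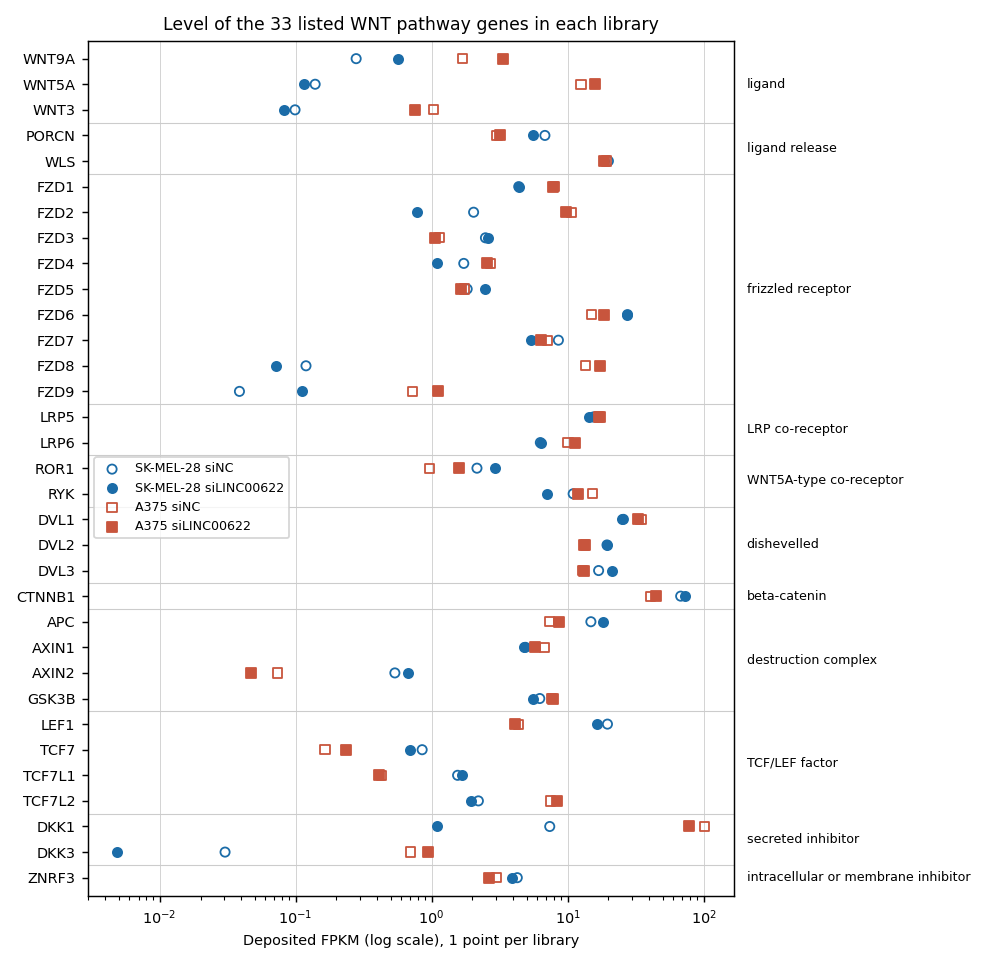
Deposited FPKM (log axis) of the 33 genes in the 4 libraries, 1 point per library, blue circles for SK-MEL-28 and red squares for A375, open for siNC and filled for siLINC00622, in order of role. WNT5A, FZD8, DKK1 and DKK3 show the widest gaps between the lines, and CTNNB1 lies above 40 FPKM in every library.

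The machinery that releases ligands was present in all 4 libraries. WLS was at 20.0 and 18.6 FPKM in SK-MEL-28 against 19.4 and 18.5 FPKM in A375, and its log2 ratios with siLINC00622 were -0.09 and -0.06. PORCN was at 6.82 and 5.60 FPKM in SK-MEL-28 against 3.03 and 3.21 FPKM in A375, with ratios of -0.27 and 0.09.

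All 9 Frizzled receptor genes on the list were measured, though FZD9 was under the count minimum in SK-MEL-28. Of them, 4 were more than 1.5-fold lower with siLINC00622 in SK-MEL-28 while none was in A375. Over all genes tested, 6.49% were lower in SK-MEL-28 and 4.34% in A375. FZD2 had 255 and 101 counts in SK-MEL-28, a log2 ratio of -1.35 with an interval of -1.71 to -1.03, against 1265 and 1334 counts in A375, a ratio of -0.13. FZD7 had 1301 and 845 counts in SK-MEL-28, a ratio of -0.65 (-0.78 to -0.53), against 1019 and 1064 counts in A375, a ratio of -0.15. FZD4 had 422 and 278 counts in SK-MEL-28, a ratio of -0.63 (-0.86 to -0.41), against 626 and 683 counts in A375, a ratio of -0.08.

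FZD4 shares 1399 exon bases with PRSS23 on the opposite strand in the GENCODE 29 annotation, which is not the annotation of the files, and the library kit does not mark strand. PRSS23 had 8123 and 6201 counts in SK-MEL-28 against 6218 and 10876 in A375, and the part of these reads in the FZD4 counts was not tested. FZD8 had only 16 and 10 counts in SK-MEL-28, so its ratio of -0.61 carried an interval of -2.01 to 0.52 that includes no difference.

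Other Frizzled genes differed little with the siRNA or were higher. FZD8 in A375 had 1726 and 2565 counts, a ratio of 0.36 (0.27 to 0.45), and FZD6 in A375 had 1918 and 2749 counts, a ratio of 0.31 (0.23 to 0.39). FZD5 had 426 and 595 counts in SK-MEL-28, a ratio of 0.45 (0.27 to 0.63), and a ratio of -0.07 in A375. FZD9 had 53 and 95 counts in A375, a ratio of 0.61 (0.13 to 1.14), and 3 and 9 counts in SK-MEL-28, too few for the count minimum of 10, with a ratio of 1.11 and an interval of -0.45 to 4.08. FZD1 and FZD3 had ratios between -0.08 and 0.08 in both lines.

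FZD6 had the highest level per length of the Frizzled genes in every library, but its share of their summed FPKM differed between the lines. It made up 56.6% and 61.9% of the sum in SK-MEL-28 against 24.8% and 28.0% in A375. FZD8, at 0.245% and 0.162% of the sum in SK-MEL-28, was the second Frizzled gene in A375 with 22.4% and 26.2%. FZD2 came next in A375 with 17.6% and 14.6%, against 4.18% and 1.76% in SK-MEL-28.

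The summed Frizzled level was 48.8 and 44.5 FPKM in SK-MEL-28 against 60.8 and 66.3 FPKM in A375. Thus the totals lay closer together than the make-up did, with 1 receptor holding most of the mRNA in SK-MEL-28 against 5 receptors at or above 6.38 FPKM in A375.

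**Figure D2:**
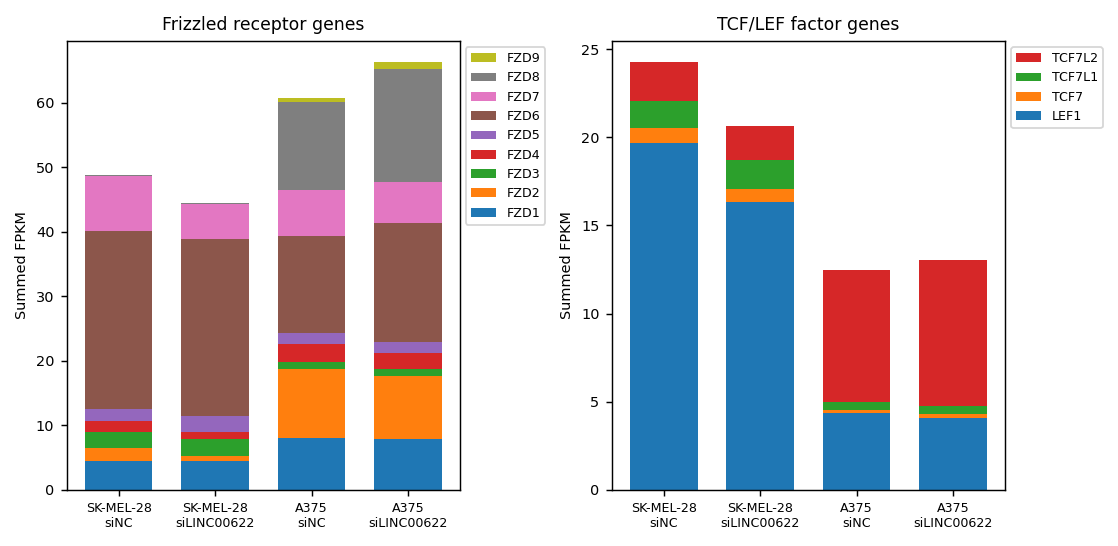
Stacked FPKM of the 9 Frizzled receptor genes (left) and of the 4 TCF/LEF factor genes (right) in each of the 4 libraries, 1 library per bar and no error. FZD6 fills most of the SK-MEL-28 bars. FZD8 is visible only in A375, and FZD2 fills more of the A375 bars than of the SK-MEL-28 bars. LEF1 fills most of the TCF/LEF bar in SK-MEL-28 while TCF7L2 does in A375.

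Among the co-receptors, the canonical pair LRP5 and LRP6 stayed within 1.5-fold. LRP5 was at 14.5 to 17.4 FPKM over the 4 libraries with log2 ratios of -0.08 and 0.06, and LRP6 at 6.31 to 11.3 FPKM with ratios of 0.04 and 0.18. The receptors of WNT5A-type signaling had larger values. RYK, a receptor with an inactive kinase domain, had 2972 and 1973 counts in SK-MEL-28, a ratio of -0.62 (-0.71 to -0.54), and 3894 and 3563 counts in A375, a ratio of -0.34 (-0.40 to -0.27). ROR1, a receptor tyrosine kinase-like protein, had 480 and 668 counts in SK-MEL-28, a ratio of 0.44 (0.27 to 0.62), and 203 and 388 counts in A375, a ratio of 0.72 (0.48 to 0.98). RYK was thus lower and ROR1 higher with siLINC00622 in each line, with both past 1.5-fold in 1 line only.

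The intracellular core of the pathway stayed within 1.5-fold with the siRNA in both lines. CTNNB1, which encodes beta-catenin, had 26439 and 29351 counts in SK-MEL-28 against 15007 and 18991 in A375, with log2 ratios of 0.12 and 0.13. The 3 Dishevelled genes had ratios from -0.07 to 0.33, and DVL3 in SK-MEL-28 was the highest of these with 3531 and 4550 counts. In the destruction complex, APC had ratios of 0.30 and 0.24, AXIN1 of -0.03 and -0.22, and GSK3B of -0.15 and 0.04 in SK-MEL-28 and A375. AXIN2, a feedback inhibitor and a classical readout of beta-catenin activity, had 93 and 120 counts in SK-MEL-28, a ratio of 0.33 (-0.07 to 0.74), and 12 and 9 counts in A375, a ratio of -0.52 (-2.05 to 0.75), and both intervals include no difference. ZNRF3, a membrane ubiquitin ligase that removes Frizzled receptors, had ratios of -0.11 and -0.18.

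None of the 4 TCF/LEF factors passed 1.5-fold in either line. LEF1 had 3489 and 2996 counts in SK-MEL-28 (-0.25, interval -0.32 to -0.18) and 733 and 797 in A375 (-0.09), and TCF7L2 had 493 and 450 counts (-0.16) and 1581 and 2044 counts (0.16). TCF7 had 285 and 240 counts in SK-MEL-28 (-0.28) against 52 and 86 in A375 (0.50, interval 0.003 to 1.04), and it shares 210 exon bases with SKP1 on the opposite strand, which had 3751 counts or more in every library. TCF7L1 had ratios of 0.11 and -0.05.

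By FPKM, LEF1 stood 8.90 and 8.37 times above TCF7L2 in SK-MEL-28 against 0.583 and 0.490 times TCF7L2 in A375. The order of these factors was therefore opposite in the lines and the same with and without the siRNA.

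The secreted inhibitors held the lowest ratios of all members in SK-MEL-28. DKK1, which blocks LRP5 and LRP6 at the cell surface, had 544 counts with siNC and 83 after siLINC00622 in SK-MEL-28 (7.397 and 1.09 FPKM), a log2 ratio of -2.71 with an interval of -3.09 to -2.41. In A375 it had 7036 and 6338 counts (101 and 78.4 FPKM), a ratio of -0.36 with an interval of -0.41 to -0.31. DKK1 was thus lower with siLINC00622 in both lines, past 1.5-fold in SK-MEL-28 alone, and even the lower A375 library held over 10 times the FPKM of the higher SK-MEL-28 library.

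DKK3, a divergent member of the same family, had 12 and 2 counts in SK-MEL-28, a ratio of -1.83 with an interval of -5.82 to -0.45, and 263 and 411 counts in A375, a ratio of 0.43 (0.21 to 0.66). Its value in SK-MEL-28 rests on 14 counts in all.

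In SK-MEL-28, 1 of the 32 members that reached 10 counts in either library was more than 1.5-fold higher with siLINC00622 (WNT9A) and 7 were more than 1.5-fold lower (FZD2, FZD4, FZD7, FZD8, RYK, DKK1 and DKK3). Over all genes tested in that line, 4.56% were higher and 6.49% lower by this measure. In A375, 3 of 33 members were higher (WNT9A, FZD9 and ROR1) and 0 lower, where 4.52% of all genes were higher and 4.34% lower. The members' median log2 ratio was -0.08 in SK-MEL-28 against -0.01 in A375, beside -0.004 and 0.004 over all genes.

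Of the members past 1.5-fold, those nearest to the limit were FZD8 (-0.61) in SK-MEL-28 and FZD9 (0.61) in A375. Of the members within it, those with the highest and lowest ratios were FZD5 (0.45) and TCF7 (-0.28) in SK-MEL-28 and TCF7 (0.50) and AXIN2 (-0.52) in A375. No test was made of any of these values, since the members were selected with this contrast in view and each condition had 1 library.

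**Figure D3:**
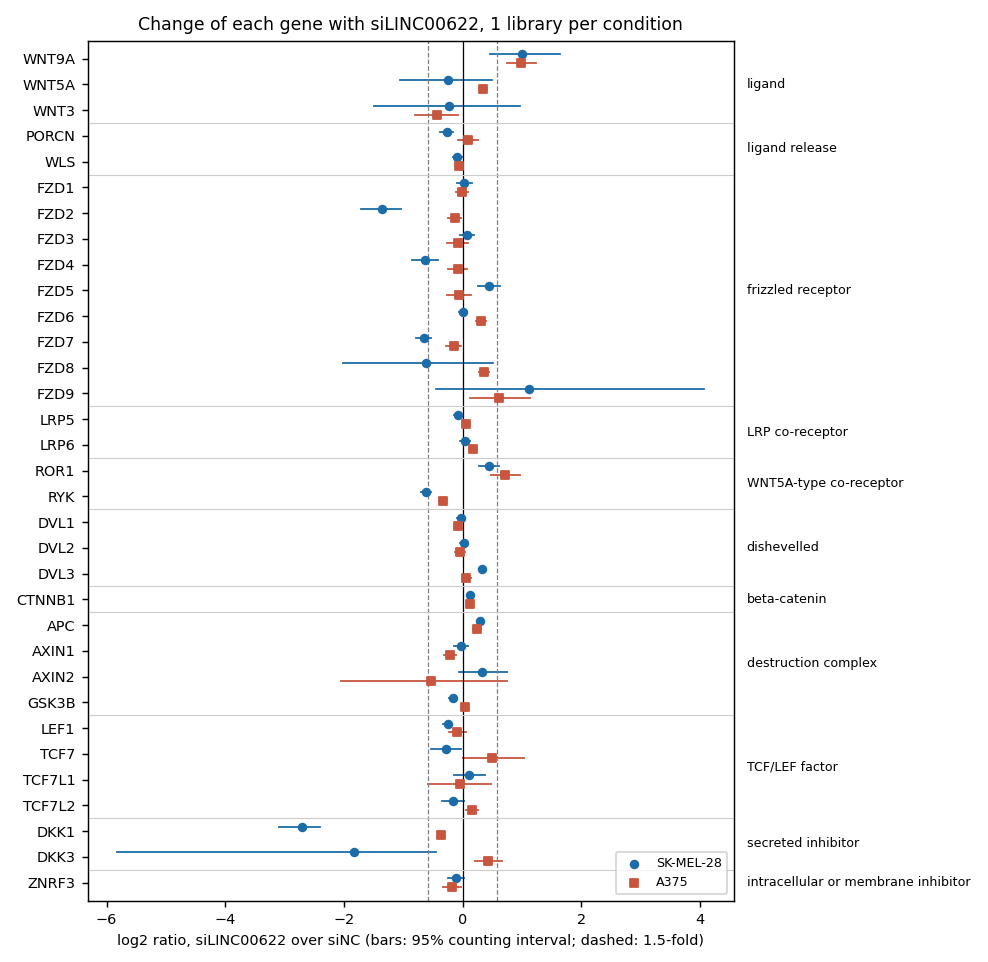
Log2 ratio of siLINC00622 over siNC for each member (x axis), in SK-MEL-28 (blue circles) and A375 (red squares), with bars for the 95% counting interval (the lower bounds are drawn down to -6.5) and dashed lines at 1.5-fold. WNT9A lies to the right of the dashed line in both lines, and DKK1, FZD2, FZD4, FZD7 and RYK lie to the left of it in SK-MEL-28 alone.

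A match to the seed of the siRNAs was looked for in the 3′ UTR of each member, because an siRNA can also lower mRNAs that pair with its seed. The longest annotated 3′ UTR in GENCODE 29 held GTGAGAA, the site for siLINC00622_1, in 5 of the 33 members (15.2%, beside 14.6% of 12370 genes) and ATTGACT, the site for siLINC00622_2, in 7 (21.2%, beside 11.6%). These shares were not matched for the length of the 3′ UTR. Of the 7, all but FZD6 (1350 bases) had a 3′ UTR of 4396 (FZD5) to 11257 bases (FZD3). Sites in WNT9A, FZD7 and FZD4, the ligand and the receptors with a site that passed 1.5-fold, are shown with the match in capitals.
WNT9A: cacatggtGTGAGAAggtctaca
FZD7: acctggaaGTGAGAAgttctttg
FZD4: ggggacaaATTGACTatgtcaca

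WNT9A, with a site for siLINC00622_1, was higher with siLINC00622 in both lines, whereas FZD7 (siLINC00622_1) and FZD4 (siLINC00622_2) were lower in SK-MEL-28. DKK1, FZD2 and RYK held neither site. The 12 members with either site had a median log2 ratio of 0.02 in SK-MEL-28 against -0.06 in A375, and the members without one had -0.12 and 0.06. The part of these sites in any ratio was not tested.

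The contrast between the lines was tested. The rule that names the members does not use it, although the list was drawn up with earlier results of these data known. A single edgeR quasi-likelihood fit held line and treatment as terms over the 4 libraries and 16742 genes, and a gene was called with a Benjamini-Hochberg adjusted p under 0.05 and a fold above 1.5. With this design 1 residual degree of freedom remained, and it holds the difference in response between the lines rather than the spread between cultures. The fit also drew each gene's variance toward that of other genes, with a median of 5.78 prior degrees of freedom. The p-values therefore say nothing of other cultures of these lines, or of other melanomas. The SE after ± is the size of the log2 difference divided by the square root of the F statistic of the same test. It was not estimated apart from the p-value and carries the same limits.

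Of the 33 members, 13 were higher in SK-MEL-28 (39.4%, beside 26% of all genes) and 11 were higher in A375 (33.3%, beside 26.8%), and 9 were not called. With library totals in place of TMM, which moved the median of all genes by -0.17 on the log2 scale toward A375, the counts were 10 and 13. By role, all 3 ligands and both secreted inhibitors were higher in A375. Of the 9 Frizzled genes, 2 were higher in SK-MEL-28, 5 in A375 and 2 were not called. Beta-catenin, 2 of 4 destruction complex genes, 2 of 3 Dishevelled genes and 3 of 4 TCF/LEF factors were higher in SK-MEL-28, with TCF7L2 higher in A375 and the others not called. PORCN, ROR1 and ZNRF3 were higher in SK-MEL-28, and no test of role was made.

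The table itself limits these counts, since the lowest mean over its 4 libraries was 0.25 FPKM and a gene below that level in 1 line was listed only through the other line. This holds for 7 members, with WNT5A, WNT3, FZD8, FZD9 and DKK3 below it in SK-MEL-28 and AXIN2 and TCF7 below it in A375, so that their differences are given below without a p. The counts by role above include them. WNT9A was the only ligand, and DKK1 the only secreted inhibitor, that reached this level in each line. The Frizzled count for A375 includes FZD8 and FZD9, and the SK-MEL-28 counts of TCF/LEF factors and destruction complex genes include TCF7 and AXIN2. Of the 26 members that reached this level in each line, 11 were higher in SK-MEL-28 (42.3%, beside 25.0% of 13980 such genes) and 6 in A375 (23.1%, beside 20.6%).

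On the A375 side, FZD8 had the largest difference, with 16 and 10 counts in SK-MEL-28 against 1726 and 2565 in A375, a log2 difference (SK-MEL-28 minus A375) of -7.16 ± 0.22 (SE). Its counting intervals were wider, at -7.47 to -5.96 between the siNC libraries and -8.81 to -6.87 between the siLINC00622 libraries. WNT5A followed with -6.62 ± 0.18 and DKK3 with -5.36 ± 0.48. DKK1, which reached the level in each line, differed by -4.57 ± 0.49 (edgeR, adjusted p = 0.000167). For DKK1 the difference was -3.60 between the siNC libraries and -6.00 between the siLINC00622 libraries, and for DKK3 -4.36 and -7.43, so the size differed by treatment while the side did not.

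FZD9 (-3.42), WNT3 (-3.12), FZD2 (-2.78), WNT9A (-2.40), TCF7L2 (-1.76), FZD4 (-0.75) and FZD1 (-0.68) made up the rest of that side. WNT9A differed by -2.40 ± 0.19 (adjusted p = 3.87e-05), with -2.42 between the siNC libraries and -2.38 between the siLINC00622 libraries. The FZD4 call was lost when any of 3 libraries was left out (A375 siNC, A375 siLINC00622 or SK-MEL-28 siLINC00622), with differences of -0.76 to -0.45.

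On the SK-MEL-28 side, AXIN2 had the largest difference, with 93 and 120 counts against 12 and 9 in A375, a log2 difference of 3.50 ± 0.32. AXIN2 shares 1316 exon bases with AC004805.1 in GENCODE 29, a gene not analysed here. The factors LEF1 (2.25 ± 0.10, adjusted p = 3.41e-06), TCF7 (2.12 ± 0.25) and TCF7L1 (2.11 ± 0.20, adjusted p = 8.27e-05) came next. LEF1 shares 279 exon bases with LEF1-AS1 on the opposite strand, which had 131 and 120 counts in SK-MEL-28 against 5 and 11 in A375.

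FZD3 (1.38), APC (1.21), ROR1 (1.18), PORCN (1.15), CTNNB1 (0.90), FZD6 (0.89), DVL2 (0.72), ZNRF3 (0.71) and DVL3 (0.70) were also higher in SK-MEL-28. CTNNB1 was at 67.9 and 73.1 FPKM in SK-MEL-28 against 40.8 and 44.4 FPKM in A375 (edgeR, adjusted p = 5.01e-05). The calls of DVL2, DVL3 and ZNRF3 were lost with library totals, that of ROR1 without the A375 siNC library (0.83) and that of DVL3 without the SK-MEL-28 siLINC00622 library (0.53).

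The 9 members not called were WLS, FZD5, FZD7, LRP5, LRP6, RYK, DVL1, AXIN1 and GSK3B, with log2 differences from -0.58 (LRP6) to 0.50 (FZD5). LRP6, RYK, FZD5 and DVL1 had an adjusted p under 0.05 with a fold of 1.49 or less. FZD7 was higher in SK-MEL-28 between the siNC libraries (0.45) and close to level between the siLINC00622 libraries (-0.08).

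**Figure D4:**
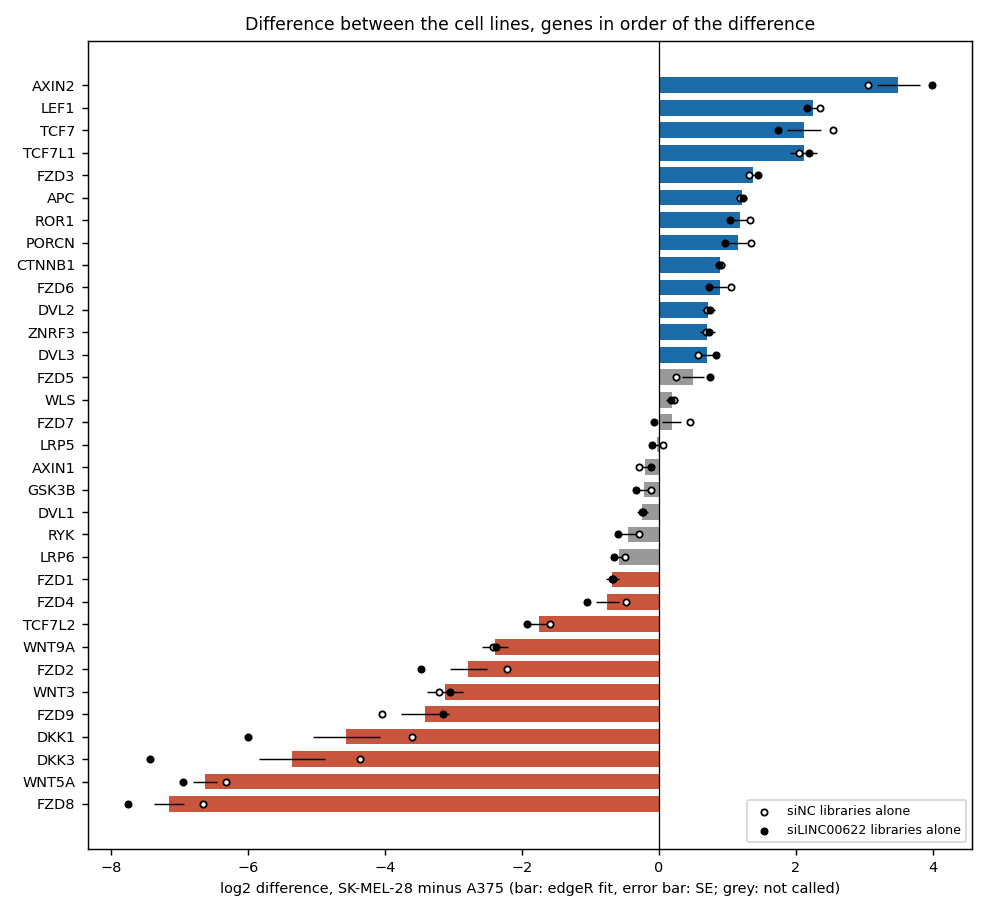
Log2 difference between the lines, SK-MEL-28 minus A375, for the 33 members in order of size (bars with SE derived from the F statistic of the edgeR fit over 4 libraries, blue called higher in SK-MEL-28, red called higher in A375, grey not called), with the value between the siNC libraries (open circles) and between the siLINC00622 libraries (filled circles). FZD8 and WNT5A lie at the A375 end and AXIN2 and LEF1 at the SK-MEL-28 end, and the 2 circles of DKK1, DKK3 and FZD2 lie apart.

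The members were set beside 95 other genes of the pathway, the measured part of a list of 131. Between the lines, 29 of them were higher in SK-MEL-28 (30.5%, beside 26% of all genes) against 23 in A375 (24.2%, beside 26.8%), and 43 were not called, so these shares lay near those of all genes. Of these genes, 9 were below 0.25 FPKM in 1 line, all of them called. Those whose difference is given below (APCDD1, DACT1, SHISA2, TLE4, PRKCA, SOX9 and EPHB2) are without a p for the same reason. Among receptor genes, 4 of 7 were higher in SK-MEL-28, led by KREMEN1, a receptor of DKK1, with 3294 and 3764 counts against 171 and 209 in A375 (4.39 ± 0.11, adjusted p = 3.34e-07). The line with little DKK1 mRNA was thus the line with more KREMEN1 mRNA.

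Of 7 other inhibitor genes, 3 were higher in SK-MEL-28 against 3 in A375, with the largest differences of the list. APCDD1, a membrane inhibitor, had 479 and 579 counts in SK-MEL-28 against 2 and 1 in A375, a log2 difference of 7.998 with a counting interval of 6.14 to 11.05 between the siNC libraries and of 9.43 with 6.95 to 14.7 between the siLINC00622 libraries. DACT1, a Dishevelled-binding protein, was also higher in SK-MEL-28 (4.17 ± 0.42). SHISA2, which retains Frizzled receptors inside the cell, had 12 and 17 counts in SK-MEL-28 against 2418 and 2517 in A375 (-7.23 ± 0.18), and TPBG differed by -4.45 ± 0.20 (adjusted p = 3.26e-06).

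Of 18 genes for nuclear co-factors, 4 were higher in SK-MEL-28 against 5 in A375, and TLE4, a Groucho-type co-repressor, had 73 and 47 counts in SK-MEL-28 against 4432 and 4531 in A375 (-6.06 ± 0.16). Of 27 genes of the planar polarity and calcium branch, 7 were higher in SK-MEL-28 against 5 in A375, with PRKCA, a protein kinase C gene, at 60 and 51 counts against 1892 and 2536 (-5.13 ± 0.16). Of 18 further destruction complex and kinase genes, 13 were not called. The ligand WNT10B was higher in A375 (-0.94).

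Of 17 genes known as beta-catenin targets, 9 were higher in SK-MEL-28 against 5 in A375. SNAI2, a transcription factor of the neural crest, had 11021 and 10480 counts in SK-MEL-28 against 37 and 82 in A375 (7.69 ± 0.23, adjusted p = 5.78e-07). MITF, named here after its values were seen because it is also a melanoma marker, had 18955 and 18299 counts against 1182 and 1288 (4.09 ± 0.09, adjusted p = 2.42e-07). Higher AXIN2, LEF1 and MITF thus stood in the line that also had the higher pigment genes. TCF7L2 (-1.76) and 5 target genes were higher in A375. The targets were EPHB2 (-3.93), SOX9 (-3.17), EPHB3 (-3.04), FOSL1 (-2.79) and CD44 (-1.498). FOSL1 had 2904 and 2107 counts in SK-MEL-28 against 19550 and 18956 in A375. CD44 had 9927 and 8291 counts in SK-MEL-28 against 27216 and 30706 in A375. AXIN2 was below 0.25 FPKM in A375, and the part of the pigmented state in these differences was not tested.

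**Figure D5:**
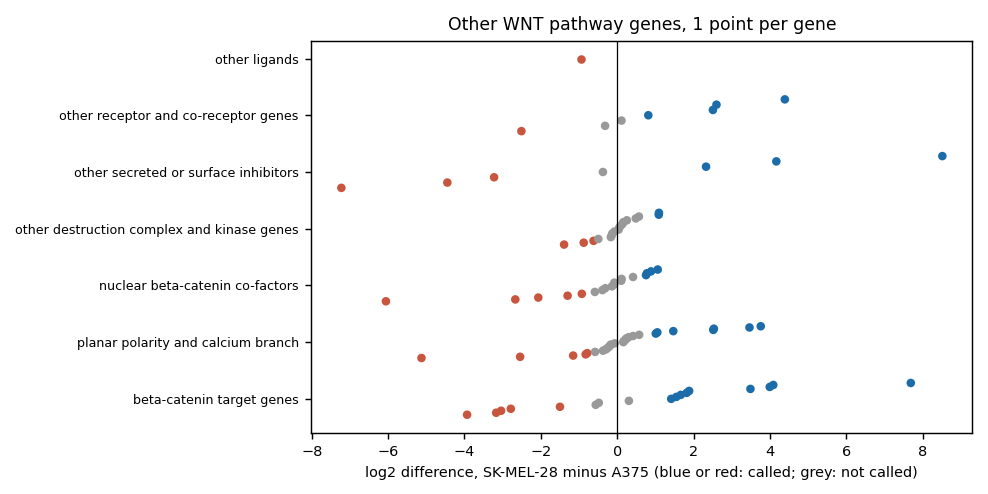
Log2 difference between the lines, SK-MEL-28 minus A375 (x axis), for the 95 other pathway genes by role, 1 point per gene from the edgeR fit over 4 libraries, blue called higher in SK-MEL-28, red called higher in A375 and grey not called. Of the 18 destruction complex and kinase genes 13 are grey, and the whole list spreads from -7.23 (SHISA2) to 8.52 (APCDD1).

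For the same 95 genes the response to siLINC00622 was tested with the lines as the replicates, in the fit above. The rule for the members does not name these genes, but their list too was made with earlier results of these data known, so the test is not independent of that knowledge. None of them rose and 1 fell, beside 0.191% of all genes called higher and 0.251% called lower over both lines. With an unadjusted p under 0.05 and the same fold, 1 was higher (FRAT2) and 1 lower, and DESeq2 called 0 higher and 1 lower. The gene that fell was CCND1, which encodes the G1 cyclin D1 and is known as a target of beta-catenin among many other inputs.

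CCND1 had 35045 and 16060 counts in SK-MEL-28 against 27575 and 16963 counts in A375. Its log2 difference was -1.02 ± 0.09 (edgeR, adjusted p = 0.0338). The adjusted p was 0.071 with library totals and 0.135 when only genes with 50 counts in a library were kept, and it ranged from 1.06e-14 (DESeq2) to 0.135 over the alternatives. Beside CCND1, no gene of the 95 was past 1.5-fold in the same direction in both lines, and the share over all genes is not given here.

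Within each line, 3 of the 95 were more than 1.5-fold higher with siLINC00622 in SK-MEL-28 (FRAT2, CELSR1 and SIAH2) and 10 were lower, among them SFRP1, DACT1, JUN and EPHB3. In A375, 4 of 94 were higher (DACT1, CTNNBIP1, PRICKLE2 and SNAI2) and 2 were lower (KREMEN2 and CCND1). The share for SK-MEL-28 was 3.16% higher and 10.5% lower, and for A375 4.26% and 2.13%, against the shares of all genes given above. The members' and these genes' counts come from the same 4 libraries and are not separate evidence.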

How the data were processed

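The authors enriched poly(A) RNA and made libraries with a kit that does not mark strand. The submitters' processing notes name HISAT2, HISAT, TopHat2 and Bowtie2 and the build hg19, with no role or version, and the counter and annotation are not given in the sources used here. The authors deposited 1 table with raw read counts per gene, FPKM, TPM and CPM for each library. The deposited CPM is the count scaled to the reads of the whole library, and the library total was read from count over CPM. Counts were used for ratios and tests and the deposited FPKM for levels between genes. The gene lengths implied by CPM over FPKM reached 17871 bases among the members (GSK3B). How these lengths were set is not stated, and levels and shares between genes depend on them. The deposited TPM was not used. All columns were mapped to a sample by name (0 unmapped columns of values).

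Within a line, counts were scaled by TMM, log2 ratios took a prior count of 2, and a gene needed 10 counts in 1 library. Counting intervals are 95% Clopper-Pearson. Lines were compared with edgeR 4.0.16 in R 4.3.3 (glmQLFit and glmQLFTest, TMM, line and treatment as terms, Benjamini-Hochberg over 16742 genes), and DESeq2 1.42.0 was an alternative. Both the members and the other lists were chosen with earlier results of these data known. Every member was described by role. Of the other pathway genes, those named were the 4 called genes with the largest difference between the lines on each side, any gene called for treatment and any past 1.5-fold in the same direction in both lines. Genes given in addition were chosen after their values were seen. The fits were tested on simulated data. Library totals were 31269923 to 36384819 counts, and genes under about 10 counts have wide intervals. Replicates were 1 per condition, so the p-values measure only the spread described with each test. The promoters come from RefSeq (GRCh38.p14), the 3′ UTRs and overlaps from GENCODE 29, neither being the build of the files. No coordinates were taken from the files.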

Additional observations from a re-analysis of the deposited data

Results flagged for a closer look

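In 13 genes (2 members and 11 other pathway genes) the log2 ratio of siLINC00622 over siNC pointed one way in SK-MEL-28 and the opposite way in A375, with counting intervals that exclude 0 in each line. Of these, 7 were past 1.5-fold in at least 1 line and are given here, and the other 6 (TCF7, ROCK2, CAMK2D, NFATC3, TWIST1 and NRCAM) were within 1.5-fold in each line. With 1 library per condition the difference between the lines was not tested for any of them. DKK3, the member among the 7, had -1.83 in SK-MEL-28 (12 and 2 counts) and 0.432 in A375. The DKK1 receptor gene KREMEN2 had 0.546 and -0.787, with 232 and 347 counts in SK-MEL-28 against 64 and 42 in A375. SFRP1, a secreted Frizzled-related inhibitor, had -0.757 and 0.464, with 1240 and 749 counts and 8097 and 12917 counts. DACT1 had -0.717 and 1.30, the latter from 20 and 60 counts. NFATC2, a factor of the calcium branch, had -0.625 and 0.179. SNAI2 had -0.104 and 0.905, the latter from 37 and 82 counts. EPHB3, an ephrin receptor gene, had -0.963 and 0.239, with 82 and 42 counts in SK-MEL-28 against 484 and 661 in A375.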

How the results depend on the processing

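Between the lines, the members called kept within 1.5 times of 13 and 11 under every alternative run, with 12 to 14 higher in SK-MEL-28 against 10 to 12 higher in A375 when each library was left out in turn (a fit without the treatment term, in which a lone sample is assumed to vary like the other line). Library totals gave 10 and 13. Of the members' differences, those of FZD7 and LRP5, neither of them called, changed side when a library was left out, with FZD7 at -0.13 to 0.50 and LRP5 at -0.062 to 0.016, and no other changed side in the alternatives with a test. No condition has a second library, so no replicate could be left out within it.

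Over both lines, the genes called for siLINC00622 depended on the setting. All genes called higher and lower were 32 and 42 in the main setting, 69 and 84 with DESeq2, 1 and 0 with library totals, 53 and 60 with no filter on low counts, 0 and 0 with 50 counts in a library, and 316 and 313 with an unadjusted p under 0.05. The other pathway genes called lower were 0 with library totals and 0 with 50 counts, where the CCND1 call was lost, and 1 was called higher with an unadjusted p. The cause was not tested.

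Within a line, FPKM with a pseudocount of 1 left 0 members higher and 2 lower in SK-MEL-28 against 1 higher in A375, since a pseudocount pulls low genes to 0, and all genes past 1.5-fold were then 200 higher and 294 lower in SK-MEL-28 against 131 and 171 in A375. With 50 counts in a library, all genes were 356 and 638 in SK-MEL-28 against 405 and 312 in A375. Without a filter, 2 members were higher in SK-MEL-28 (FZD9 in addition), with 1081 genes higher there and 1064 lower in A375. A prior count of 0.5 made 1 member lower in A375. Depth limits FZD8, FZD9, DKK3 and WNT3 in SK-MEL-28 and AXIN2 in A375, which rest on 16 counts or fewer per library.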

Other observations

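The genes next to WNT9A on chromosome 1 were read in the same way as WNT9A. JMJD4, the nearest of them on one side, had 114 and 129 counts in SK-MEL-28 against 224 and 265 in A375. Its log2 ratios of siLINC00622 over siNC were 0.14 and 0.03, and SNAP47 had -0.14 and -0.01. On the other side MIR5008 came first, with 4 counts or fewer in each library, and ARF1 after it had 0.32 and 0.08. C1orf35 was lower in both lines (-0.79 and -0.96), and ZNF678 in SK-MEL-28 (-0.70, against 0.04 in A375). No neighbour with enough counts was more than 1.5-fold higher in either line. WNT9A, at 1.01 and 0.98, was named for its rise while the neighbours were not. The gap between WNT9A and its neighbours therefore cannot be read as a result. These are values of single libraries with no test.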
